A study of Mus musculus with 25 samples.

Results

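Metallothioneins and the genes that handle or sense zinc with them were followed in RAW 264.7 cells, a mouse macrophage line, across 8 doses of hypochlorous acid (HOCl). Neutrophils make this oxidant from hydrogen peroxide and chloride with the enzyme myeloperoxidase. The genes are Mt1 and Mt2, which encode metallothioneins, Slc30a1, which encodes the zinc exporter ZnT1 of the plasma membrane, and Mtf1, which encodes the zinc-sensing transcription factor MTF-1. Every probe set of the array that is annotated to 1 of the 4 genes was taken, whatever its values, which gave 10 of the 45037 probe sets tested. Mt1 has 2 probe sets, Mt2 has 1, Slc30a1 has 2 and Mtf1 has 5. No filter on signal was used, so all 10 were tested at every dose.

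Metallothioneins are small proteins rich in cysteine that hold zinc and copper through their thiolates. Oxidants of thiols, HOCl among them, are known to release zinc from such sites in vitro. MTF-1 senses free zinc and binds metal response elements in the promoters of Mt1, Mt2 and Slc30a1, so the transcripts of these 3 genes are widely used as readouts of available zinc. Macrophages are known to express Mt1 and Mt2.

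The core of the metal response element was searched as TGCACNC or TGCGCNC on both strands of RefSeq promoter windows of 300 bases (GRCm38.p6), which run from 250 bases before each start to 50 after it. On the opposite strand the same letters read GNGTGCA or GNGCGCA. The Mt2 window held 4 matches, the Mt1 window 3, the Slc30a1 window 2 and the Mtf1 window 0. Of 32851 windows of that length, 25.7% held at least 1 match, 7.11% at least 2, 1.97% at least 3 and 0.517% at least 4. The stretches below show each match in the 3 genes that MTF-1 is known to bind, with the matched letters in capitals, read 5′ to 3′ on the plus strand. The neighbouring Mt1 stretches overlap at their ends, while the matches themselves do not. The windows of Mt1 and Slc30a1 are placed on a start inside the annotated span of the gene. Sequence outside the windows, further upstream or downstream, was not searched, so the counts can leave out elements on either side. A match of letters is a description of the sequence and no binding was measured.
Mt2, chr8:94172384-94172412: agcatcgcctcTGCACCCggcccctcggg
Mt2, chr8:94172479-94172507: cgcagacccttTGCGCTCagctcctttgc
Mt2, chr8:94172557-94172585: ggggggagggcGTGTGCAggctctgtccc
Mt2, chr8:94172611-94172639: gaattcgggtcGTGCGCAggcccaggggc
Mt1, chr8:94179055-94179083: cggtcccgctgTGCACACtggcgctccag
Mt1, chr8:94179080-94179108: ccagggagctcTGCACTCcgcccgaaaag
Mt1, chr8:94179098-94179126: cgcccgaaaagTGCGCTCggctctgccaa
Slc30a1, chr1:191906727-191906755: acgggggttccGAGTGCAaagcaaagttt
Slc30a1, chr1:191906800-191906828: gcctccgggccGAGCGCAgtcgccgcgga

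In the RefSeq annotation of GRCm38.p6, Mt1 (gene ID 17748) lies on chromosome 8 at 94178883 to 94180327. Mt2 (gene ID 17750) lies on the same chromosome at 94172618 to 94173567, next to Mt1. Slc30a1 (gene ID 22782) lies on chromosome 1 at 191906697 to 191913248, and Mtf1 (gene ID 17764) on chromosome 4 at 124802549 to 124849800.

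Cells had been kept in DMEM with fetal bovine serum and antibiotics, grown close to confluence, and exposed for 6 h to HOCl in medium. The 7 treated groups received 0.14, 0.35 or 0.7 mM, 1.4 or 2.1 mM, and 2.8 or 3.5 mM, with 3 arrays each, and the group at 0 mM, in the same medium for the same time, has 4 arrays. All groups are this 1 line with no genetic change named in the labels, and the dose is the amount added to the medium. The labels call the replicates biological but do not say that each came from a separate culture, so the p-values measure the spread between these arrays. Because RNA of whole cultures was measured, fewer cells with a transcript and less of it per cell cannot be told apart. Values are log2 signals with the median of each array at 0, and a signal of 1 probe set says nothing of its level against another probe set.

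The line's identity was checked against its markers. All 9 macrophage markers measured lay above the array median on all 25 arrays, with array means of 5.07 to 5.82 over the list. Of 17 markers of fibroblasts, epithelium, lymphocytes and hepatocytes 16 were measured, with array means of -0.19 to 0.18, and 11 of them stayed below 1 on every array. Of these 16, 5 lay above the array median on all 25 arrays and 5 below it on all 25. On all 25 arrays 0 of the 16 lay above 2, against 7 of the 9 macrophage markers. A technical level differs between the arrays, read from 8 probe sets for the 5′ part of the poly-A control RNAs dap, lys, phe and thr. They averaged at most 1.12 on 11 arrays and at least 1.75 on the other 14. This average is called the spike level here, and probe sets for other parts of these RNAs were not used. All arrays at 0 and 0.14 mM and replicates 1 and 2 at 0.35 and 0.7 mM are of the low spike level. All arrays at 1.4, 2.1, 2.8 and 3.5 mM are of the high level, together with replicate 3 at 0.35 and at 0.7 mM. A limma fit that includes the spike level therefore leans on those 2 arrays, and its values are given for the calls of the 4 genes from 1.4 mM upwards. Of the comparisons with 0 mM, only that of 0.14 mM lies within 1 spike level, as do the steps between neighbouring doses from 1.4 mM upwards.

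None of the metallothionein probe sets passed the test at any dose. Slc30a1 was higher at 1.4 mM on both its probe sets, and at 2.1 and 2.8 mM on 1422786_at alone. Mtf1 was higher at 2.1 and 2.8 mM on 1418333_at alone. Both genes had a probe set below its 0 mM level at 3.5 mM. All these rises compare arrays of different spike level, and none was called with spike level as a term (limma adjusted p 0.363 to 0.736). The falls at 3.5 mM against 0 mM compare arrays of different spike level too. With spike level as a term the Slc30a1 fall was not called (limma adjusted p = 0.127), and the Mtf1 fall was. In the limma fit over all 25 arrays, with an adjusted p under 0.05 as the threshold, 8 of the 70 comparisons of a probe set with 0 mM were called. None of the 10 probe sets was called at 0.14 mM, where 0.00444% of all probe sets were, at 0.35 mM (6.43%) or at 0.7 mM (0.133%). At an unadjusted p under 0.05 there were 0, 2 and 0 of 10 at these 3 doses. At 1.4 mM 2 of the 10 were called, against 7.81% of all probe sets. At 2.1 mM 2 were called (13.4% of all), at 2.8 mM 2 (11.9%) and at 3.5 mM 2 (9.32%). The F test over the 7 doses called 4 of the 10, both Slc30a1 probe sets and 2 of Mtf1, against 24.7% of all.

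Mt1 was read by the bright probe set 1422557_s_at, whose suffix marks probes that can match more than 1 transcript. At 0 mM its log2 signal was 6.51, 6.31, 6.68 and 6.37. It was 6.56, 6.60 and 6.65 at 0.14 mM, 6.81, 6.69 and 6.46 at 0.35 mM, and 6.68, 6.70 and 6.67 at 0.7 mM. The arrays of these low doses lie within or slightly above the range at 0 mM. At 1.4 mM the signal was 6.17, 6.52 and 6.69, at 2.1 mM 6.80, 6.78 and 6.75, at 2.8 mM 6.60, 6.81 and 6.69, and at 3.5 mM 6.80, 6.14 and 6.39. Only at 2.1 mM did all 3 arrays lie above every 0 mM array, a pattern that 16.2% of all probe sets showed at that dose. All 25 arrays of this probe set fell within 0.67 of each other.

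The differences of Mt1 from 0 mM were small at all doses. On 1422557_s_at they ran from -0.03 at 3.5 mM to 0.31 at 2.1 mM, where the fold was 1.24 (SE 0.134 on the log2 scale, limma adjusted p = 0.138). The 2.1 mM difference was 0.46 with spike level as a term (limma adjusted p = 0.376). The highest upper limit of its 95% intervals over the 7 doses was 0.59 on the log2 scale, or 1.50-fold, at 2.1 mM. The F test over the doses gave an adjusted p of 0.313 for 1422557_s_at and of 0.478 for the other Mt1 probe set, 1451612_at. The probe set 1451612_at is dim, with signals of 0.09 to 1.09, and its differences from 0 mM ran from -0.06 to 0.31.

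Mt2 was read by 1 probe set, 1428942_at. At 0 mM its log2 signal was 6.56, 6.48, 6.36 and 6.49, at 0.14 mM 6.68, 6.76 and 6.71, at 0.35 mM 7.04, 6.79 and 6.87, and at 0.7 mM 6.36, 6.70 and 7.01. At 1.4 mM it was 6.44, 6.24 and 6.84, at 2.1 mM 6.77, 6.65 and 6.60, at 2.8 mM 6.61, 6.62 and 6.54, and at 3.5 mM 6.94, 6.73 and 6.73. All 3 arrays lay above all 4 arrays of 0 mM at 0.14, 0.35, 2.1 and 3.5 mM, which was so for 4.4%, 6.25%, 16.2% and 11.9% of all probe sets. At 0.7 and 1.4 mM the 3 arrays spread to both sides of the 0 mM range.

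The difference of Mt2 from 0 mM was widest at 0.35 mM, at 0.43 (SE 0.131, 95% interval 0.16 to 0.70, 1.35-fold), and it missed the threshold with a limma adjusted p of 0.0544. At 3.5 mM the difference was 0.32 (1.25-fold, adjusted p = 0.127), or 0.10 with spike level as a term (adjusted p = 0.781), and at the other doses it was 0.04 to 0.25. The 0.35 mM value was called, with the same difference, when replicate 1 or 3 of 0.7 mM or replicate 2 or 3 of 1.4 mM was left out of the fit (limma adjusted p 0.0291 to 0.0426), and also without the probe sets whose mean lies below the median (0.0431). Over the arrays of the low spike level alone the difference was 0.44 (adjusted p = 0.072).

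Of the 21 comparisons of a metallothionein probe set with 0 mM, 0 were called by limma and 3 had an unadjusted p under 0.05. The brightest signals of the arrays were 8.20 to 8.74, above the metallothionein signals of 6.14 to 7.04 of the bright probe sets. A pair of genes beside them shows the size of other responses on the same arrays. Hmox1, which encodes the heme-degrading enzyme heme oxygenase, had 6.59, 6.34 and 6.12 at 0.35 mM against 4.18, 4.24, 3.42 and 4.38 at 0 mM, a 4.90-fold rise (limma adjusted p = 1.78e-05), and at 2.1 mM it was 11.4-fold higher than at 0 mM (adjusted p = 7.76e-09). Gclm, a modifier subunit of glutamate-cysteine ligase, was 4.29-fold higher at 0.35 mM (adjusted p = 0.005) and 12.8-fold higher at 2.1 mM (adjusted p = 8.27e-06). At 3.5 mM neither was called. Hmox1 stood there at 0.85 of its 0 mM level (limma adjusted p = 0.486). Gclm had 3.58, 2.65 and 2.86 at 3.5 mM, against 3.79, 3.08, 3.64 and 2.81 at 0 mM. At 0.35 mM the upper 95% limit of the fold was 1.38 for Mt1 (1422557_s_at) and 1.63 for Mt2.

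**Figure D1:**
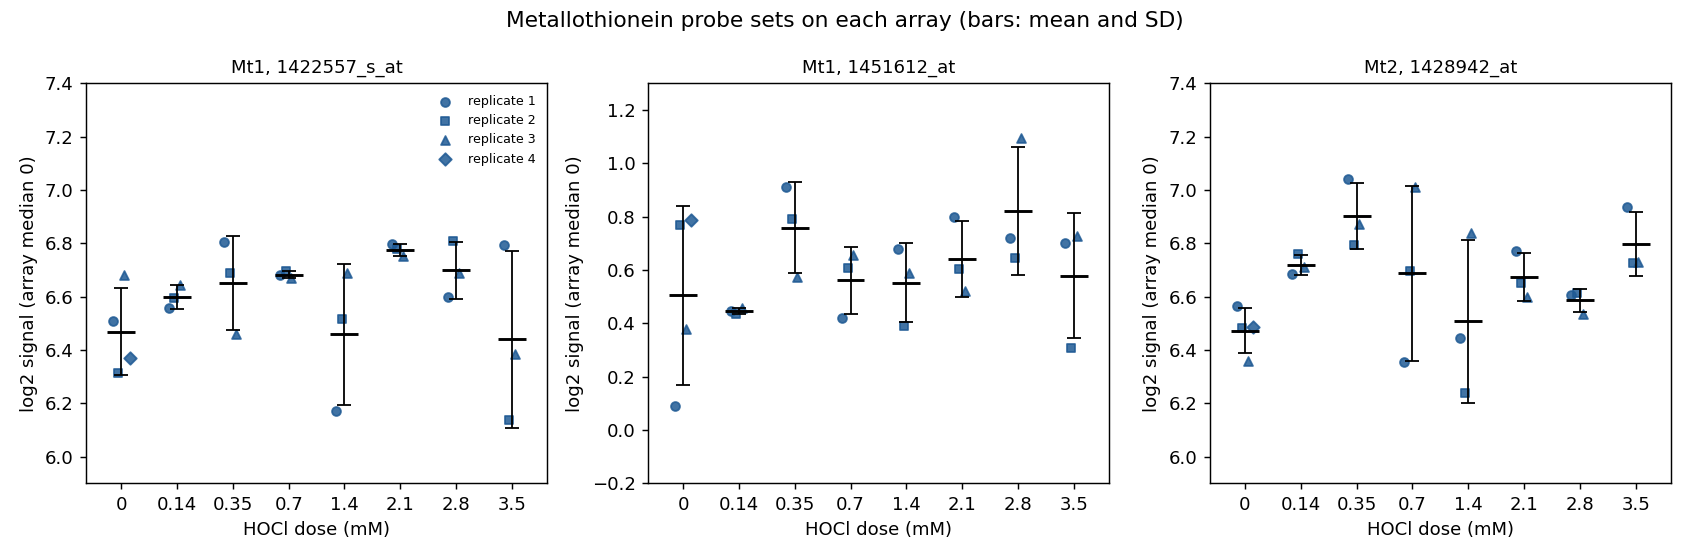
Log2 signal (array median 0, vertical axis) of the 2 Mt1 probe sets and the Mt2 probe set on each of the 25 arrays, by HOCl dose in mM (horizontal axis). Symbols mark the replicate number, and the bars give the mean and SD of each dose (n = 4 at 0 mM, n = 3 at the others). The bright Mt1 probe set stays between 6.14 and 6.81 at all doses and Mt2 between 6.24 and 7.04. The middle panel has another vertical range.

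Mt1 and Mt2 were also compared with each other within each array, as the difference between the signals of their bright probe sets, set against the same difference at 0 mM. It ran from -0.59 to -0.14 over the 3 arrays at 3.5 mM and from -0.17 to 0.32 over the 4 arrays at 0 mM, so the ranges touch only at their ends. The mean at 3.5 mM stood at -0.35 relative to 0 mM (two-sided exact permutation p = 0.114, adjusted over 7 doses p = 0.599). No other dose had a lower exact p, and the smallest that 3 against 4 arrays allow is 0.0571. Over the 25 arrays the signals of Mt1 and Mt2 correlated at r = 0.304, and over the 8 dose means at r = 0.265. These points share the array and its scaling, so the correlations are a description only.

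Slc30a1 differed between doses by more than the metallothioneins. For its brighter probe set, 1436164_at, the log2 signal at 0 mM was 1.78, 2.60, 2.50 and 2.43, at 0.14 mM 1.75, 1.86 and 2.06, at 0.35 mM 1.86, 1.38 and 1.91, and at 0.7 mM 2.50, 2.49 and 2.26. At 1.4 mM it was 4.04, 3.35 and 2.37, at 2.1 mM 2.87, 2.88 and 2.56, at 2.8 mM 2.23, 2.79 and 2.72, and at 3.5 mM 1.34, 1.12 and 1.35. The 3 arrays at 1.4 mM spread widely, with replicates 1 and 2 above every 0 mM array and replicate 3 within their range. At 3.5 mM all 3 arrays lay below all arrays of 0 mM, as 7.72% of all probe sets did. The F test over the doses had an adjusted p of 0.000785.

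At 1.4 mM Slc30a1 rose 1.90-fold over 0 mM on 1436164_at (log2 difference 0.92, SE 0.267, limma adjusted p = 0.0386). This call was lost without replicate 1 of 1.4 mM (0.53, adjusted p = 0.221), replicate 2 of 1.4 mM (0.88, 0.111), replicate 1 of 0 mM (0.74, 0.107) or replicate 4 of 0 mM (0.96, 0.0645), and with spike level as a term (0.89, adjusted p = 0.583). At 2.1 and 2.8 mM this probe set was not called, with differences of 0.44 (adjusted p = 0.294) and 0.25 (adjusted p = 0.593). At 0.35 mM it stood at -0.61 against 0 mM (adjusted p = 0.18). At 3.5 mM it fell to 0.48 of its level at 0 mM (difference -1.06, SE 0.267, 95% interval -1.62 to -0.50, adjusted p = 0.0154). The 3.5 mM call was lost without replicate 2 of 3.5 mM (-0.98, adjusted p = 0.063) and with spike level as a term (-1.09, adjusted p = 0.127). It was also lost with a replicate block in the limma fit (-1.03, adjusted p = 0.0533). The 3.5 mM difference stayed between -1.24 and -0.97 in every alternative run.

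The other Slc30a1 probe set, 1422786_at, is dimmer. Its log2 signal at 0 mM was 0.26, 1.10, 1.12 and 1.16, at 0.14 mM 0.21, 0.75 and 0.83, at 0.35 mM 1.10, 0.87 and 1.38, and at 0.7 mM 1.22, 1.15 and 1.51. At 1.4 mM it was 2.35, 1.52 and 1.56, at 2.1 mM 1.93, 1.88 and 1.92, at 2.8 mM 1.29, 2.57 and 2.35, and at 3.5 mM 1.39, 0.91 and 1.00. All arrays at 1.4, 2.1 and 2.8 mM lay above all those at 0 mM, a pattern shown by 11%, 16.2% and 12.7% of all probe sets at these doses. Replicate 1 of 0 mM stood well below the other 3 arrays of its group. On the same array, Mtf1 was also the lowest of its group on 1418333_at and 1452990_at, and the highest on 1429170_a_at.

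On 1422786_at Slc30a1 rose 1.86-fold at 1.4 mM (log2 difference 0.90, SE 0.275, limma adjusted p = 0.0495), 2.00-fold at 2.1 mM (1.00, adjusted p = 0.0201) and 2.24-fold at 2.8 mM (1.16, adjusted p = 0.0094). At 3.5 mM its difference from 0 mM was 0.19 (adjusted p = 0.706). The 1.4 mM call lies at the threshold and was lost in 17 of the 25 fits that leave out 1 array (adjusted p up to 0.224), among them those without replicate 1, 2 or 4 of 0 mM or any array of 1.4 mM. The 2.1 mM call was lost without replicate 1 of 0 mM (0.78, adjusted p = 0.0614) or without replicate 1, 2 or 3 of 2.1 mM (0.99 to 1.02, adjusted p 0.0615 to 0.0675). The 2.8 mM call was lost without replicate 2 (0.91, adjusted p = 0.0825) or replicate 3 of 2.8 mM (1.02, adjusted p = 0.0643). With spike level as a term the differences were 0.53, 0.64 and 0.80 at 1.4, 2.1 and 2.8 mM, none of them called (adjusted p 0.736, 0.547 and 0.363).

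The 2 Slc30a1 probe sets followed each other in part, with r = 0.677 over the 25 arrays and r = 0.685 over the 8 dose means. Their signal difference within each array, 1422786_at minus 1436164_at, ran from -1.52 to -1.27 at 0 mM. It was -0.77 to -0.51 at 0.35 mM, -1.003 to -0.64 at 2.1 mM, -0.93 to -0.21 at 2.8 mM and -0.35 to 0.05 at 3.5 mM, above the whole 0 mM range at each of these doses. The mean difference was higher than at 0 mM by 0.82, 0.56, 0.91 and 1.25 at 0.35, 2.1, 2.8 and 3.5 mM, each with an exact two-sided permutation p of 0.0571, the smallest that 3 against 4 arrays allow (0.0999 adjusted over 7 doses). This number of arrays cannot give a p under 0.05. The rise at 2.1 and 2.8 mM and the fall at 3.5 mM were each called on 1 of them only.

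Mtf1 was read by 5 probe sets. On the brightest, 1418333_at, the log2 signal at 0 mM was 0.96, 2.11, 2.02 and 2.15, at 0.14 mM 1.70, 1.77 and 1.83, at 0.35 mM 2.41, 1.90 and 2.19, and at 0.7 mM 1.92, 1.86 and 2.30. At 1.4 mM it was 2.37, 2.46 and 2.29, at 2.1 mM 2.47, 2.61 and 2.45, at 2.8 mM 2.29, 2.87 and 2.73, and at 3.5 mM 1.79, 1.65 and 2.06. All arrays at 1.4, 2.1 and 2.8 mM lay above all those at 0 mM, as for 11%, 16.2% and 12.7% of all probe sets. At 3.5 mM the 3 arrays lay within the 0 mM range, which is wide because of replicate 1 of 0 mM.

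Mtf1 on 1418333_at rose 1.62-fold at 2.1 mM (log2 difference 0.70, SE 0.217, limma adjusted p = 0.0369) and 1.77-fold at 2.8 mM (0.82, adjusted p = 0.0181). At 1.4 mM it stood at 0.56 above 0 mM (adjusted p = 0.116) and at 3.5 mM at 0.02 (adjusted p = 0.958). The 2.1 mM call was lost without replicate 1 of 0 mM (0.42, adjusted p = 0.0767), which moved the value by more than any other omission, and without replicate 1, 2 or 3 of 2.1 mM (0.65 to 0.73, adjusted p 0.083 to 0.127). The 2.8 mM call was lost without replicate 2 (0.70, adjusted p = 0.108) or replicate 3 of 2.8 mM (0.77, adjusted p = 0.0831). Without replicate 1 of 0 mM and of 0.14 mM together it held, at 0.54. With spike level as a term the differences were 0.48 at 2.1 mM and 0.60 at 2.8 mM, with adjusted p of 0.574 and 0.395.

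A second Mtf1 probe set, 1428979_at, was called at the highest dose alone. Its signal at 3.5 mM was 0.65, 0.40 and 0.36, against 1.20, 1.25, 0.92 and 1.01 at 0 mM, with no overlap. Of all probe sets 7.72% had all arrays of 3.5 mM below all those of 0 mM. It fell by 0.62 on the log2 scale at 3.5 mM (0.65 of the 0 mM level, SE 0.142, 95% interval -0.92 to -0.33, limma adjusted p = 0.00805). The call held in all 33 alternatives run, with adjusted p of at most 0.0437, and with spike level as a term the difference was -1.03 (adjusted p = 0.00203). At the 6 lower doses this probe set stood between -0.07 and 0.22 of its 0 mM level.

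The other 3 Mtf1 probe sets, 1429170_a_at, 1452990_at and 1440414_at, were not called at any dose (F test adjusted p 0.227 to 0.335). Their differences from 0 mM ran from -0.29 to 0.24, from -0.19 to 0.40 and from -0.23 to 0.16. The means of 1452990_at and 1440414_at over the arrays, -0.31 and -0.49, lie below the array median. Over the 25 arrays the signal of 1452990_at ran against the other 4 Mtf1 probe sets, with r of -0.624 to -0.296, whereas those 4 correlated with each other at r of 0.368 to 0.476. The array thus gave different dose patterns for 1 gene, and the rise of Mtf1 rests on 1 of its 5 probe sets.

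**Figure D2:**
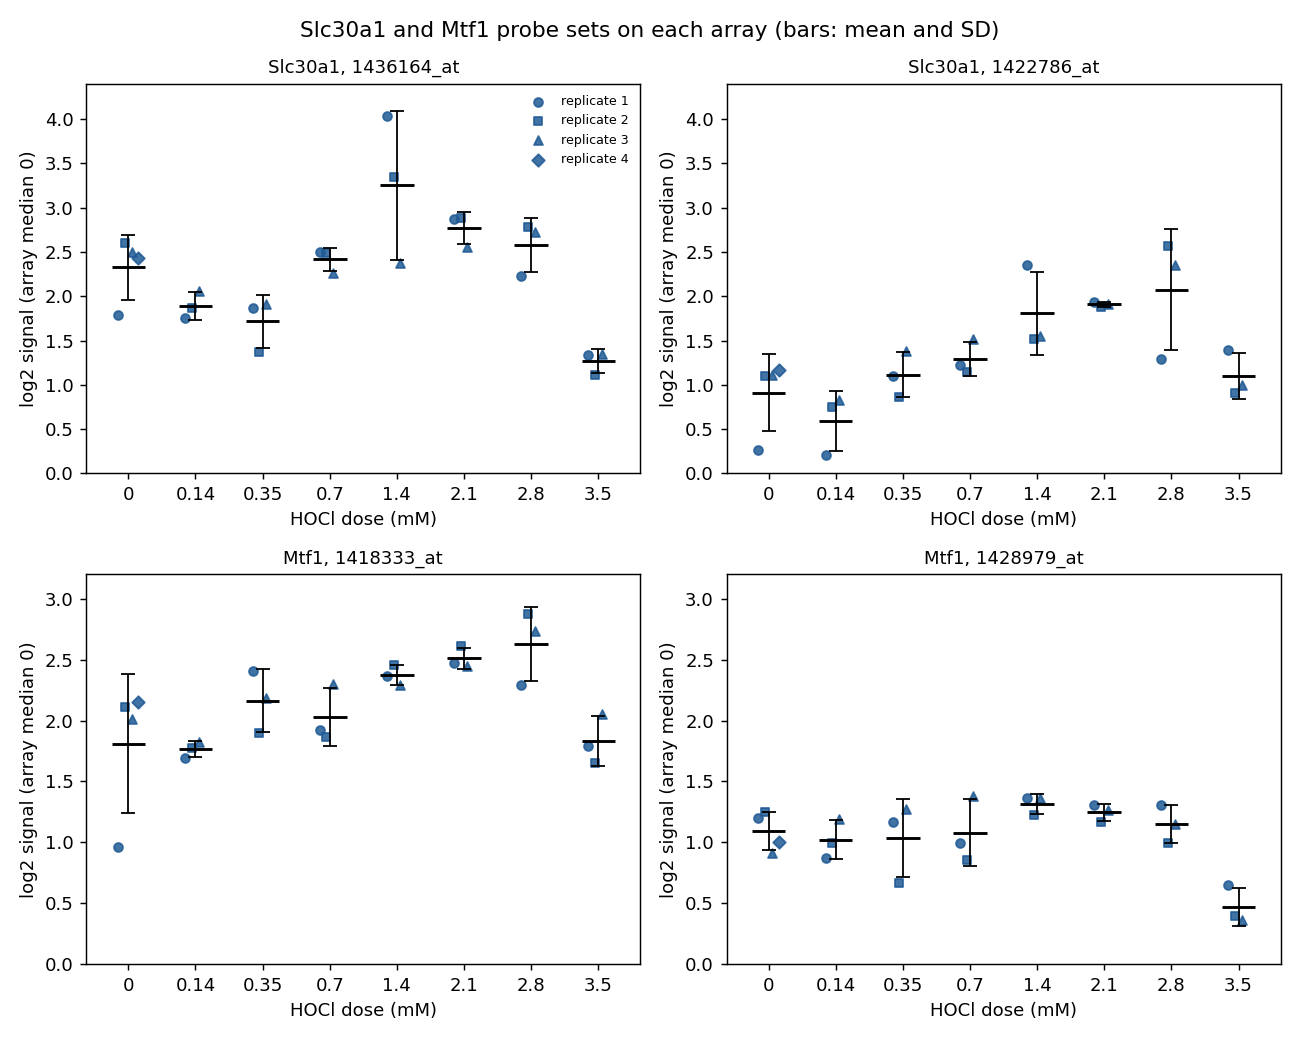
Log2 signal (array median 0, vertical axis) of both Slc30a1 probe sets and of the 2 Mtf1 probe sets with an F test call, on each of the 25 arrays by HOCl dose in mM (horizontal axis). Symbols mark the replicate number, and the bars give the mean and SD (n = 4 at 0 mM, n = 3 at the others). Slc30a1 1436164_at is highest on replicate 1 of 1.4 mM, at 4.04, and lowest at 3.5 mM, and Mtf1 1428979_at lies below 0.66 at 3.5 mM.

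The dose step between 3.5 and 2.8 mM lies within 1 spike level and uses no 0 mM array. At 3.5 mM 4 of the 10 probe sets were lower than at 2.8 mM, against 5.66% of all probe sets lower and 11.2% called in either direction. Slc30a1 on 1436164_at had 1.34, 1.12 and 1.35 at 3.5 mM against 2.23, 2.79 and 2.72 at 2.8 mM, a fall to 0.40 of the level (log2 difference -1.31, SE 0.286, limma adjusted p = 0.00516). Mtf1 on 1428979_at had 0.65, 0.40 and 0.36 at 3.5 mM against 1.30, 1.00 and 1.15 at 2.8 mM (difference -0.68, 0.62-fold, adjusted p = 0.00612). For both, no array of 3.5 mM reached the lowest of 2.8 mM, as for 11.3% of all probe sets, and both calls held in all 33 alternatives, with adjusted p of at most 0.0371 and 0.0384.

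Slc30a1 on 1422786_at (log2 difference -0.97, 0.51-fold, limma adjusted p = 0.036) and Mtf1 on 1418333_at (-0.80, 0.58-fold, adjusted p = 0.0297) were also lower at 3.5 than at 2.8 mM. The Slc30a1 arrays of the 2 doses overlapped in replicate 1 of 2.8 mM, and its call was lost without replicate 2 or 3 of 2.8 mM or of 3.5 mM (-0.92 to -0.72, adjusted p 0.125 to 0.226). The Mtf1 call was lost without replicate 2 or 3 of 2.8 mM or replicate 1 or 2 of 3.5 mM (-0.78 to -0.68, adjusted p 0.0631 to 0.157). Mt1 on 1422557_s_at stood at -0.26 (adjusted p = 0.306) and Mt2 at 0.21 (adjusted p = 0.424) for the same step. Without replicate 1 of 3.5 mM the Mt1 difference was -0.44 and passed the threshold (adjusted p = 0.0402). At the other 6 steps, where 0% to 3.37% of all probe sets were called, 0 of 60 comparisons of the 10 probe sets were called by limma and 3 had an unadjusted p under 0.05.

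**Figure D3:**
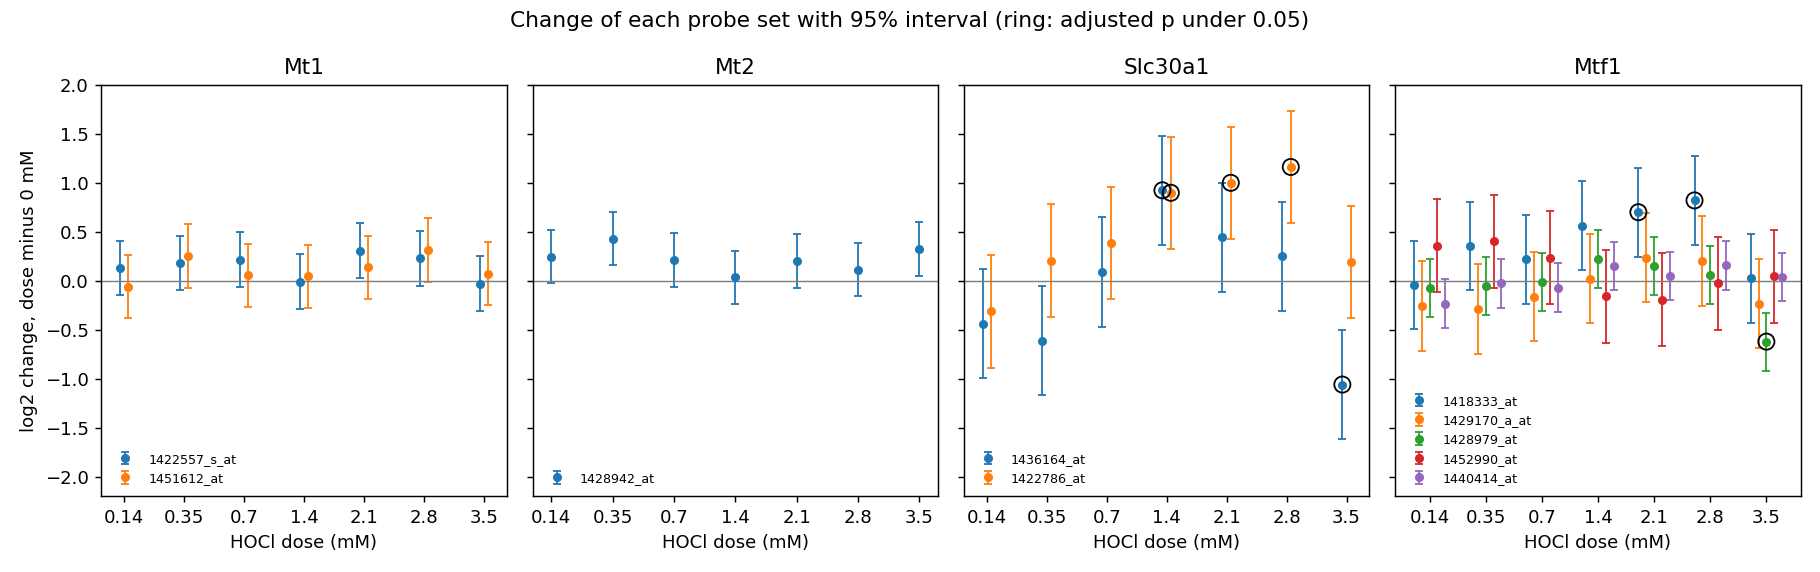
Difference in log2 signal from 0 mM (vertical axis) of each of the 10 probe sets by HOCl dose in mM (horizontal axis), with the 95% interval of the limma fit over 25 arrays, 1 panel for each gene. Rings mark an adjusted p under 0.05. Mt1 and Mt2 carry no ring, Slc30a1 has rings at 1.4, 2.1, 2.8 and 3.5 mM, and Mtf1 at 2.1, 2.8 and 3.5 mM.

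Ordered by their dose means, Mt1 (1422557_s_at) was lowest at 3.5 mM (6.44) and highest at 2.1 mM (6.78), and Mt2 was lowest at 0 mM (6.47) and highest at 0.35 mM (6.90). For both genes every pair of neighbours in that order had overlapping arrays. Slc30a1 on 1436164_at ran from 1.27 at 3.5 mM through 1.72 at 0.35 mM, 1.89 at 0.14 mM, 2.33 at 0 mM, 2.42 at 0.7 mM, 2.58 at 2.8 mM and 2.77 at 2.1 mM to 3.25 at 1.4 mM. Here only the lowest pair, 3.5 and 0.35 mM, had arrays that did not overlap. On the other Slc30a1 probe set, 1422786_at, 3.5 mM (1.10) had rank 3 from the lowest and overlapped both its neighbours. The only neighbours without overlap on 1422786_at were 0.7 and 1.4 mM. Mtf1 on 1418333_at ran from 1.77 at 0.14 mM to 2.63 at 2.8 mM with overlap between all neighbours. On 1428979_at, 3.5 mM stood apart below the next dose, and the other neighbours overlapped. The share of all probe sets with such a gap between neighbours was not counted.

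Between the 4 genes, the brightest Slc30a1 and Mtf1 probe sets correlated at r = 0.597 over the 25 arrays and at 0.652 over the 8 dose means. Mt2 and Slc30a1 ran against each other, at r = -0.566 over arrays and -0.733 over dose means. The array with the highest Slc30a1 signal, replicate 1 of 1.4 mM, had a low Mt1 signal (6.17) and a low Mt2 signal (6.44). Hspa1b, a heat shock protein gene, had 6.89 on that array and 4.19 and 3.62 on the other 2 of the dose. Hspa1b was 3.94-fold higher at 1.4 mM than at 0 mM (limma adjusted p = 0.0412) and 14.3-fold higher at 3.5 mM (adjusted p = 0.000236). The 1.4 mM call of Hspa1b was lost with spike level as a term, and the 3.5 mM call held. Hspa1a, its close copy, was not called at any dose (F test adjusted p = 0.164). Transcripts of such close copies can share probes.

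The genes whose signal was most like each of the 4, by Pearson correlation with its brightest probe set over the 25 arrays, differed from gene to gene. Slc30a1 was most like Lcor (r = 0.941), Bach1 (0.924), D5Ertd579e (0.905), Yy1 (0.905) and Taok1 (0.900). Bach1 encodes a repressor of Hmox1 and Yy1 a zinc finger transcription factor. Mtf1 was most like Btbd10 (r = 0.933), Dyrk1a (0.917), Cdc27 (0.894), Eloa (0.894) and Zbtb21 (0.892). Mt1 was most like Myd88 (r = 0.912), Pfn1 (0.895), 1810055G02Rik (0.892), Slc25a44 (0.885) and Ap1s1 (0.877), and Mt2 was most like Ifitm6 (r = 0.847), Tbrg1 (0.819), Gsap (0.804), Prss16 (0.775) and Lpxn (0.767). No metal-handling gene of the lists below was among these genes. Arrays share scaling and spike level, so these correlations describe the arrays only.

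The other genes of zinc transport gave calls at some doses. Mt3 and Mt4, the remaining metallothionein genes of mouse, had means of 0.04 to 0.42 and of -1.38 to -1.20 over the treated doses and were not called at any dose. Of 9 other zinc exporters of the SLC30 family, 2 were higher at 2.1 mM: Slc30a6 (1.53-fold, limma adjusted p = 0.0174) and Slc30a7 (1.64-fold, adjusted p = 0.0393), which load zinc into the secretory pathway. At 0.35 mM, where 5.56% of all genes were lower, 1 exporter, Slc30a9, was lower (0.64-fold, adjusted p = 0.0494). None was called at the other 5 doses. The median exporter stood at 0.15 on the log2 scale at 2.1 mM, against 0.00 over all 18193 genes, of which 7.32% were higher and 8.20% lower.

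Of 14 zinc importers of the SLC39 family, Slc39a6 (ZIP6, a plasma membrane importer) had calls at more doses than any other. Its log2 signal was 5.33, 5.31 and 5.18 at 2.1 mM against 3.47, 4.24, 4.60 and 4.07 at 0 mM, with no overlap. Of all probe sets 16.2% had all arrays of 2.1 mM above all those of 0 mM. It was 2.00-fold higher at 1.4 mM (limma adjusted p = 0.0117), 2.27-fold at 2.1 mM (0.00223) and 2.08-fold at 2.8 mM (0.005), and at 3.5 mM it stood at 0.94 of the 0 mM level (adjusted p = 0.85). Slc39a4, an importer best known from the intestine, was 1.45-fold higher at 0.35 mM (adjusted p = 0.0497) and 1.75-fold at 2.1 mM (0.00266), while its signals, -0.65 to 0.65, lie around the array median. Slc39a11 was lower at 2.1 mM (0.60-fold, adjusted p = 0.00988) and 2.8 mM (0.66-fold, 0.0359). Slc39a14 was lower at 3.5 mM (0.67-fold, adjusted p = 0.0292). Slc39a8, higher at 2.8 mM (1.32-fold), and Slc39a9, lower at 3.5 mM (0.70-fold), complete the importer calls and are named after their values were seen. In all, 1, 1, 2, 2 and 0 importers were higher and 0, 0, 1, 1 and 2 lower at 0.35, 1.4, 2.1, 2.8 and 3.5 mM, and 0 were called at 0.14 and 0.7 mM. Of all 18193 genes 2.12%, 3.85%, 7.32%, 5.68% and 4.54% were higher and 5.56%, 5.06%, 8.20%, 8.60% and 4.83% lower at the same 5 doses. Among 14 genes 1 call is 7.14%, within the span of these shares, and 2 calls are 14.3%, above each of them. No test of the list was run.

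These transporter calls were recounted with replicate 1 of 0 mM and of 0.14 mM left out, and with spike level as a term. With the replicates left out Slc39a6 was called at the same 3 doses and Slc30a6 and Slc30a7 at 2.1 mM, and at 2.8 mM only Slc39a6 of the importers was called. Slc39a4 and Slc39a11 kept their calls at 2.1 mM, where Slc39a10 was called too. No exporter or importer was called in that setting at 0.35 or 3.5 mM, so the calls of Slc30a9 and Slc39a4 at 0.35 mM and of Slc39a14 and Slc39a9 at 3.5 mM were lost. With spike level as a term 0 exporters and 0 importers were called from 1.4 mM upwards, and at 0.35 mM Slc30a9 was called, Slc39a4 was not, and Slc39a8 was.

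Of 7 further genes that have been reported as dependent on MTF-1, Gclc, the catalytic subunit of glutamate-cysteine ligase in glutathione synthesis, was higher at 1.4 mM (2.14-fold, limma adjusted p = 0.0335). Selenow, a small selenoprotein, was lower at 1.4 mM (0.52-fold, adjusted p = 0.0218), 2.1 mM (0.56-fold, 0.0261) and 2.8 mM (0.53-fold, 0.0182). Csrp1, a LIM domain protein, was lower at 1.4 mM (0.63-fold, adjusted p = 0.0423) and 2.1 mM (0.58-fold, 0.0131). Slc39a10, a zinc importer that MTF-1 is known to repress, had its widest difference at 2.1 mM (0.71, adjusted p = 0.0547). Ndrg1, lower at 0.35 mM (0.25-fold, adjusted p = 0.047), is named after its values were seen. At 1.4 mM 14.3% of the 7 were higher and 28.6% lower, against 3.85% and 5.06% of all 18193 genes. At 0.35, 2.1 and 2.8 mM 14.3%, 28.6% and 14.3% of the 7 were lower, against 5.56%, 8.20% and 8.60% of all. No test of the list was run. With replicate 1 of 0 mM and of 0.14 mM left out Ndrg1 lost its call, Slc39a10 was called at 2.1 mM, and the calls of Gclc, Selenow and Csrp1 held. None of the 7 was called at any dose with spike level as a term.

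Of 11 genes of copper handling, Slc31a1, the high-affinity copper importer, was 2.03-fold higher at 2.1 mM (limma adjusted p = 0.0114) and 2.34-fold at 2.8 mM (0.00402). Ccs and Atox1, which deliver copper to superoxide dismutase and to copper pumps, were lower at 0.35 mM (0.66-fold and 0.72-fold, adjusted p 0.024 and 0.0131) and at 2.1 mM (0.68-fold and 0.78-fold, adjusted p 0.0195 and 0.0312). Commd1, a regulator of copper pumps, was higher at 3.5 mM (1.73-fold, adjusted p = 0.00283). Slc31a2, named after its values were seen, was 4.03-fold higher at 0.35 mM (adjusted p = 0.0172) and 3.46-fold at 2.1 mM (0.0152). In all, 2, 3, 1 and 1 of the 11 were higher and 2, 2, 0 and 1 lower at 0.35, 2.1, 2.8 and 3.5 mM. The shares of all genes at these 4 doses, 2.12% to 7.32% higher and 4.83% to 8.60% lower, would come to under 1 of 11 in each direction. With replicate 1 of 0 mM and of 0.14 mM left out, Ccs at 0.35 mM and Atox1 at 2.1 mM lost their calls, while Atox1 at 0.35 mM, Ccs at 2.1 mM, Slc31a1 at both doses and Commd1 held. The calls of Slc31a2 at 0.35 and 2.1 mM held too. With spike level as a term 1, Slc31a2, was higher and 2 lower at 0.35 mM, 1 was lower at 3.5 mM, and none was called at the other doses.

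**Figure D4:**
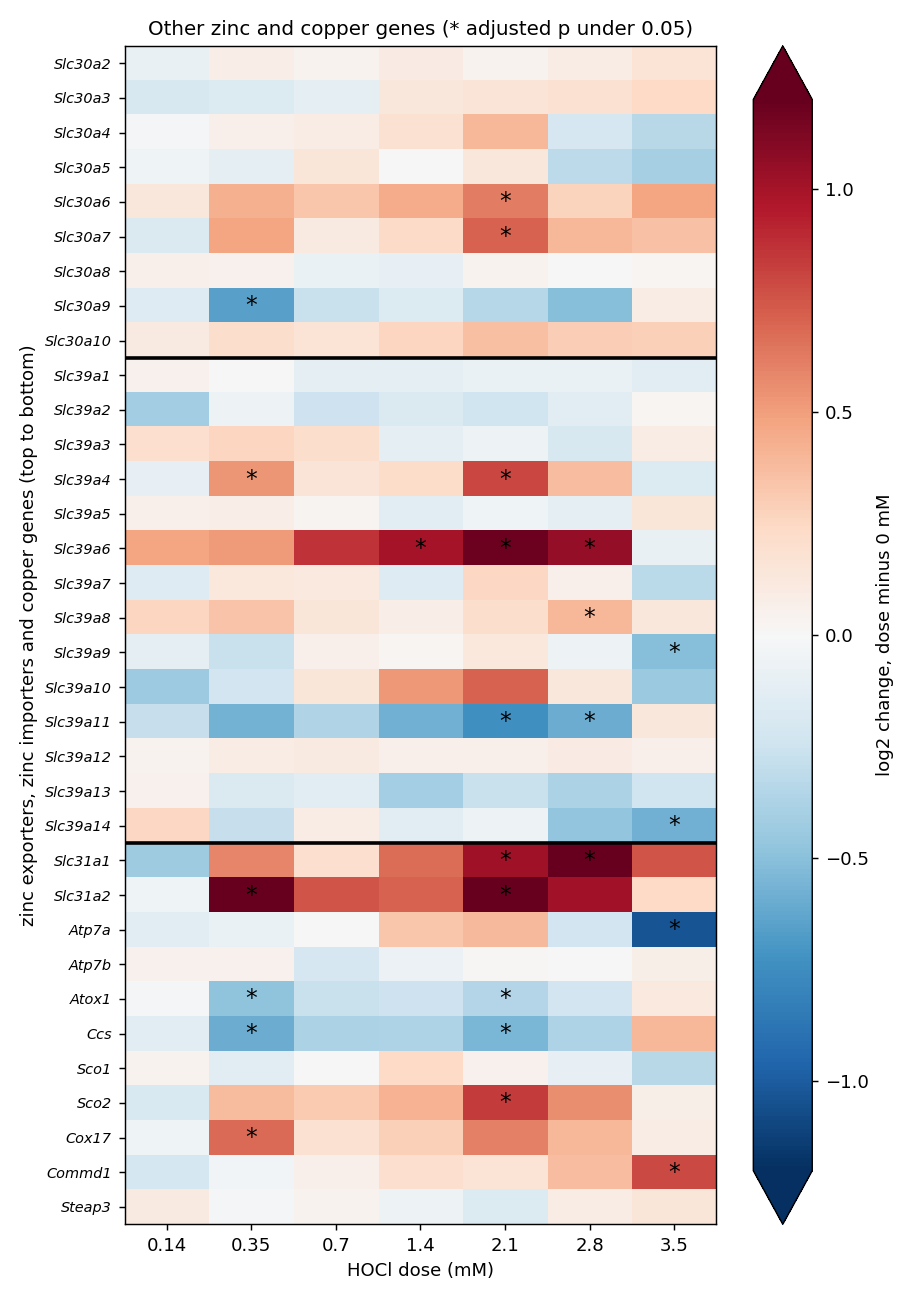
Difference in log2 signal from 0 mM (colour scale) of the other zinc exporters, zinc importers and copper genes (vertical axis, in 3 blocks from top to bottom) by HOCl dose in mM (horizontal axis). Stars mark a limma adjusted p under 0.05, and colours saturate at the ends of the scale. Slc39a6 is starred at 1.4, 2.1 and 2.8 mM, Slc31a1 at 2.1 and 2.8 mM, and Slc31a2 at 0.35 and 2.1 mM.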

How the data were processed

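Affymetrix Mouse 430_2 arrays were hybridized with labelled cRNA made from 5 µg of total RNA, per the labels. The submitters' processing notes name RMA without its settings. As deposited by the authors, values are log2 signals with each array's median at 0. The base of 2 was inferred from their span, and all folds depend on it. The upper quartile ran from 1.39 to 1.86, so no quantile normalization over arrays shows.

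Of 45101 probe sets 64 controls were set aside. A mean per dose was fitted to the 25 arrays with limma 3.58.1 (R 4.3.3, lmFit and eBayes, 17 residual and 2.99 prior degrees of freedom). P-values are two-sided and adjusted by Benjamini-Hochberg over all 45037 probe sets. Other genes were read by their brightest probe set with 1 symbol (18193 genes). Exact tests permuted 3 against 4 arrays. The fit was tested on simulated data with known changes. The simulated arrays were independent and had no spike level, so that test does not cover these features of the data.

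The members and lists were chosen with earlier results of these data known. Named besides the 10 probe sets were list genes called at any dose (up to 4 per zinc list) or with the lowest F test p (up to 4 per other list), 5 genes most correlated with each member gene, and Hmox1, Gclm, Hspa1a and Hspa1b. Of 84 array pairs with the same replicate number 19 had residuals correlated above 0.1 (median -0.0256), so the numbers were not used as pairs. Single pairs ran from -0.698 to 0.555, while the fit treated the arrays as independent.

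Alternatives were quantile normalization, dropping dim probe sets, a trended and robust prior, fitting only 2 doses, array weights, a replicate block, spike level as a term (spike levels split at 1.44), low spike arrays alone, and leaving out each array. The number of arrays limits precision.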

Additional observations from a re-analysis of the deposited data

Results flagged for a closer look

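Replicate 1 of 0 mM stood apart from the other 3 arrays of its group on 2 of the 10 probe sets, by Dixon's test at 95%. Only the 0 mM group, with 4 arrays, was tested this way, so the groups of 3 arrays were not checked for such arrays. For Slc30a1 on 1422786_at its log2 signal was 0.26, against 1.10, 1.12 and 1.16 on the others, and the gap to the nearest took 0.926 of the group's range. For Mtf1 on 1418333_at its signal was 0.96, against 2.11, 2.02 and 2.15, with a gap of 0.884 of the range. Chance marks about 1 in 20 groups of 4, and the 10 probe sets share 1 set of arrays. Both genes' calls at 2.1 mM were lost without this array. The cause was not tested.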

How the results depend on the processing

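Of 2654 values recomputed for the 10 probe sets, 2576 kept their direction, where called, and their side of the threshold, 63 lost a call, 15 gained one, and none that was called changed sign. As reported, 0, 0, 0, 2, 2, 2 and 2 of the 10 were called at the 7 doses from the lowest up, and 4 for 3.5 against 2.8 mM. Leaving out each array gave 0 to 1 at 0.35 mM, 0 to 2 at 1.4, 2.1 and 2.8 mM, 1 to 2 at 3.5 mM and 2 to 4 for 3.5 against 2.8 mM. Without the dimmer probe sets 1 was called at 0.35 mM. Fitting only the 2 doses compared gave 0 at 1.4 mM, 1 at 2.1 mM, 0 at 2.8 mM and 2 for 3.5 against 2.8 mM. The replicate block gave 0 at 1.4 mM and 1 at 3.5 mM and changed no other count. With spike level as a term there were 0 at 1.4, 2.1 and 2.8 mM and 1 at 3.5 mM. Alternatives chosen after seeing the data were the omission of replicate 1 of 0 mM and of 0.14 mM together, with 0 at 1.4 mM and 0 at 2.1 mM, and gene-by-gene array weights, with 1 at 0.14 mM, 3 at 0.35 mM, 1 at 0.7 mM, 3 at 2.1 mM, 3 at 2.8 mM and 6 for 3.5 against 2.8 mM. Under those weights Mt1 was called at 0.35, 0.7, 2.1 and 2.8 mM (0.35, 0.30, 0.39 and 0.36 above 0 mM) and Mt2 at 0.35 mM (0.51). Slc30a1 on 1436164_at was called lower than at 0 mM at 0.14 mM (-0.49) and 0.35 mM (-0.63). For 3.5 against 2.8 mM, Mt1 (-0.39) and Mtf1 on 1429170_a_at (-0.73) were newly called. The default array weights were not used because their estimate stopped before convergence. The cause of these changes was not tested, except that fits of 2 doses, or with an array left out, rest on fewer arrays.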
